A study of Mus musculus with 18 samples.

Results

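Serpina3f and Serpina3g are neighbouring genes for serine protease inhibitors (serpins). They were chosen by their levels in follicular B cells ex vivo, which were higher in Sh3gl1-/- than in WT mice, and they are 2 of the 51912 genes in the table. Sh3gl1 encodes endophilin A2, a protein that takes part in membrane uptake. RNA was sequenced from B cells of Sh3gl1-/- mice and their WT littermates, all C57BL/6. The 18 libraries formed 6 groups of 3: untreated transitional cells of each genotype, untreated follicular cells of each genotype taken ex vivo, and follicular cells of each genotype treated with CD40L, which helper T cells use to activate B cells. The labels give 14 h for the CD40L treatment, while the figure legends and the methods give differing culture times, the latter overnight. No follicular cells cultured without CD40L were analysed here, so CD40L and culture cannot be told apart. The deletion in these mice is not restricted to B cells. The members were found by matching each gene identifier to its symbol in the GRCm38 annotation, and both had counts in all 18 libraries. The question put to the data was how the levels of the pair moved with genotype, cell state and CD40L.

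Serpins act as pseudosubstrates. A protease cleaves the exposed reactive loop near the end of the serpin chain and is trapped in a complex with it. Mice carry an expanded cluster of Serpina3 genes where humans have SERPINA3, the gene of alpha-1-antichymotrypsin. Serpina3g, also known as Spi2A, is an inhibitor of lysosomal cathepsins in lymphocytes and is known to be induced by interferon-gamma. Serpina3f is less well described.

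Both genes lie on the plus strand of chromosome 12 of GRCm38, Serpina3f (ENSMUSG00000066363) at chr12:104214544-104221129 and Serpina3g (ENSMUSG00000041481) at chr12:104236245-104241939, with 15115 bp between them. The processed pseudogene Gm8918 lies in that gap on the minus strand and never exceeded 1 count. The stretches of 250 bases upstream of the RefSeq start sites (GRCm38.p6, plus strand) are shown because both hold the GAS motif TTCNNNGAA, the sequence bound by STAT factors, which is given in capitals. The Serpina3f stretch is chr12:104214294-104214543 and the Serpina3g stretch is chr12:104235897-104236146.
Serpina3f upstream: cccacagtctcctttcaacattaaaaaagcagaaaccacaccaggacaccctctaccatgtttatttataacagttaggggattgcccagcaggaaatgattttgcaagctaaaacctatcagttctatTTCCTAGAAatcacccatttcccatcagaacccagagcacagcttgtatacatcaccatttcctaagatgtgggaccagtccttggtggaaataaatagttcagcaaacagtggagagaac
Serpina3g upstream: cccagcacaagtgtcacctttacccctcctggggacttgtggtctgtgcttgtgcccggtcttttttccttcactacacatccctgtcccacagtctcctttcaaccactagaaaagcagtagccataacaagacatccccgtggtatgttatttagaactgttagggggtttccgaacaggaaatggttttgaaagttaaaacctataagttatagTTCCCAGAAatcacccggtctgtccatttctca

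Lined up on this motif without gaps, the upstream stretches were identical at 105 of 162 bases (64.8%), and the motif itself at 8 of 9. The motif began at position -121 from the first of 2 RefSeq start sites of Serpina3f, which bounds the stretch shown, and at position -210 from the second. It began at position -33 from the start site of Serpina3g. Windows from 250 bases before to 50 bases after a start site held it in 8.3% of the 32851 RefSeq windows. It reads the same on both strands. The window of Serpina3i, another gene of the cluster, held it too, at position -102, yet Serpina3i had at most 2 counts in any library. The interferon-stimulated response element, searched on both strands as TTTC followed after any 2 bases by TTTC, was found in neither member's window and in 3.44% of all windows. The NF-kB motif matched at position -85 of Serpina3g and in 8.46% of all windows, and had no match in the Serpina3f window. A match is a string of letters and was not tested as a binding site here.

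The coding sequences of both genes are alike, which bears on how reads were divided between them. In GENCODE M21 the Serpina3f transcript ENSMUST00000121337 has 6 exons and a coding length of 1335 bases, and the Serpina3g transcript ENSMUST00000043315 has 5 exons and a coding length of 744 bases. The bases that could be lined up were 87.4% identical over 744 columns. Of the windows of 50 bases in the annotated transcripts, 89.4% of those of Serpina3f and 84.5% of those of Serpina3g occurred in no other gene, and 138 windows were shared by the pair. The 60 coding bases in which they differed most are shown with the 20 differing bases in capitals, at bases 1230 to 1289 of the Serpina3f and bases 651 to 710 of the Serpina3g coding sequence. These bases lie close to the end of both coding sequences.
Serpina3f coding: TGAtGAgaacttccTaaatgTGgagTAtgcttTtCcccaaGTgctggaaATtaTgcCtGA
Serpina3g coding: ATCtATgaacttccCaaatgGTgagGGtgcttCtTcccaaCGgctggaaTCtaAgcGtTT

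The libraries held between 12404665 and 18366011 counts. The targeted gene, Sh3gl1, had 377 to 929 counts in every WT library and 1 to 22 in every Sh3gl1-/- library. The summed level of 7 B-cell markers lay between 50810 and 70944 CPM (counts scaled to the library size) in all groups. The 4 transitional markers summed to 883 to 1019 CPM in WT and 515 to 810 CPM in Sh3gl1-/- transitional libraries, with 1 of 4 called lower, and to 380 to 469 and 310 to 324 CPM in follicular libraries, again with 1 of 4 called lower. The 4 follicular markers summed to 4516.9 to 5816.0 CPM in WT and 5653.9 to 6546.8 CPM in Sh3gl1-/- transitional libraries, with 1 of 4 called higher. In follicular libraries they summed to 7048.5 to 8328.3 CPM in WT and 8086.5 to 8857.7 CPM in Sh3gl1-/- cells, again with 1 of 4 called higher. The part of the transitional and follicular markers in the genotype results was not tested. The 5 markers of CD40L-stimulated B cells lay between 93.3 and 123 CPM ex vivo and between 974 and 1818 CPM after CD40L. Markers of other cells were present and are given beside the results they moved with. In bulk RNA, fewer cells of a type and less RNA per cell cannot be told apart.

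Serpina3g was the more abundant of the pair in every library. By TPM, a unit scaled to transcript length, Serpina3g averaged 66.3 ± 16.8 and Serpina3f 5.33 ± 1.27 in WT transitional cells (SD, n = 3). In WT follicular cells the means were 63.4 ± 10.1 for Serpina3g and 3.93 ± 0.593 for Serpina3f.

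In WT follicular cells the level of Serpina3f was 8.30, 6.73 and 6.25 CPM, and in Sh3gl1-/- follicular cells it was 37.6, 29.2 and 31.0 CPM. Serpina3g stood at 82.8, 77.8 and 59.6 CPM in WT and at 225, 154 and 209 CPM in Sh3gl1-/- follicular cells. The genotypes did not overlap for either gene. The mean level was 4.6-fold higher for Serpina3f and 2.67-fold higher for Serpina3g, with fitted log2 differences of 2.20 ± 0.17 and 1.41 ± 0.16 (SE). These values chose the pair and are given without a test. Among the 13610 genes tested in follicular cells, 66 (0.485%) were called higher in Sh3gl1-/- cells at an adjusted p under 0.05, and 8.06% had every Sh3gl1-/- library above every WT library.

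**Figure D1:**
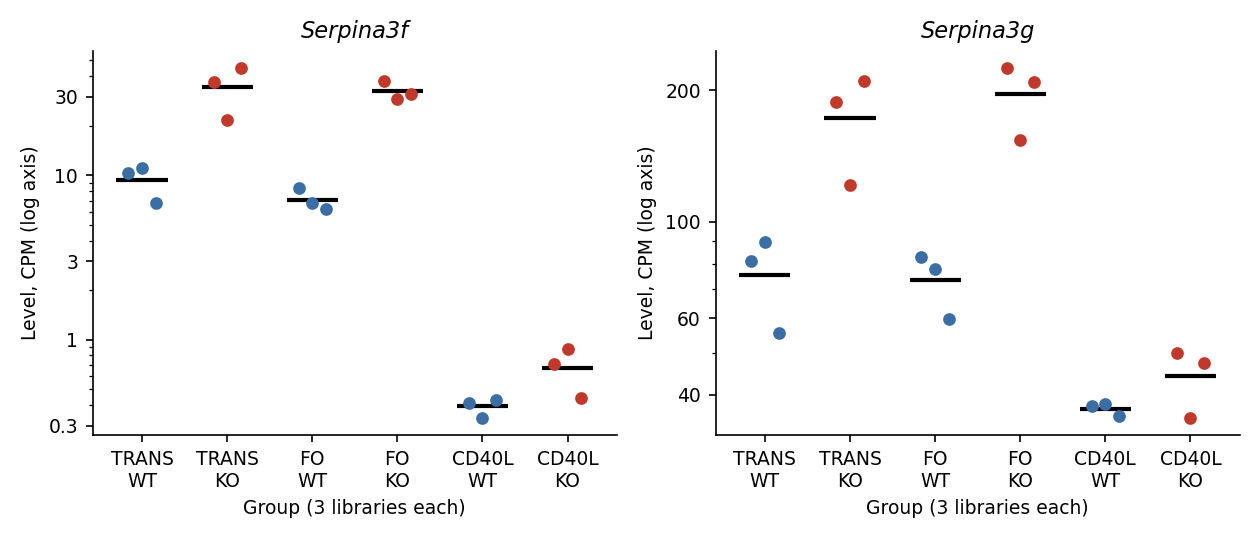
Level of Serpina3f (left) and Serpina3g (right) in each of the 18 libraries, in CPM on a log axis, by group (TRANS, transitional; FO, follicular ex vivo; CD40L, follicular after CD40L; KO, Sh3gl1-/-). Points are libraries and lines are group means; every KO point lies above the WT points in transitional and follicular cells, and the CD40L libraries hold the lowest levels of both genes.

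Transitional cells, the immature B cells that precede follicular cells, provided libraries that had not been used to choose the pair. Within a genotype, same-numbered transitional and follicular libraries deviated together from their group means (r from 0.103 to 0.263). The transitional libraries may therefore not be independent of the follicular libraries that chose the pair. Serpina3f was higher in Sh3gl1-/- transitional cells, at 36.9, 21.8 and 44.7 CPM against 10.3, 11.0 and 6.79 CPM in WT. Serpina3g was also higher, at 188, 121 and 210 CPM against 81.2, 89.7 and 55.6 CPM in WT. Neither gene had overlapping groups, a pattern found in 13.6% of the 13774 genes tested. The means differed 3.67-fold for Serpina3f and 2.29-fold for Serpina3g. The log2 difference was 1.87 ± 0.27 for Serpina3f (SE, edgeR quasi-likelihood test, Benjamini-Hochberg adjusted p = 0.013) and 1.19 ± 0.22 for Serpina3g (adjusted p = 0.026). Thus 2 of 2 members were called higher, where 1.26% of all genes were. The exact permutation test of log2 CPM gave p = 0.1 for each gene, the smallest value possible with 3 against 3. Without 1 library, the adjusted p of Serpina3f reached 0.053 (WT replicate 2), 0.058 (Sh3gl1-/- replicate 1) or 0.062 (Sh3gl1-/- replicate 3) in edgeR's test. Serpina3g kept its call only without Sh3gl1-/- replicate 2, and its adjusted p otherwise lay between 0.052 and 0.12 in edgeR's test.

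Erythroid markers moved with both genes in transitional cells. The summed level of 6 such markers, the globins among them, was 3023, 3979 and 2285 CPM in WT and 8861, 4451 and 9532 CPM in Sh3gl1-/- transitional cells, and 6 of 6 were called higher. Within each genotype, the library with the least Serpina3f, WT replicate 3 or Sh3gl1-/- replicate 2, also had the lowest erythroid level. With the log2 erythroid level as a covariate, an alternative added after these values were seen, the log2 difference was 0.73 ± 0.26 for Serpina3f (SE, edgeR adjusted p = 0.55) and 0.24 ± 0.17 for Serpina3g (adjusted p = 0.77). Only 2 genes in all were called in that fit, against 514 without the covariate. The erythroid levels of the genotypes did not overlap in transitional cells, so genotype and erythroid level could hardly be told apart in this fit. Plasma cell markers also summed higher, to 1087 to 4572 CPM in Sh3gl1-/- and 429 to 670 CPM in WT cells, as did neutrophil markers, at 123 to 612 against 57.9 to 103 CPM. Marginal zone B-cell markers were lower in Sh3gl1-/- transitional cells, at 483 to 501 against 670 to 716 CPM with 2 of 6 called, and germinal centre markers stood at 165 to 175 against 126 to 139 CPM. T-cell markers summed to 162 to 217 CPM in Sh3gl1-/- and 147 to 182 CPM in WT transitional cells, with 1 of 8 called higher. The part of these other markers in the result was not tested.

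In follicular cells the erythroid level overlapped between genotypes. It was 3867, 3572 and 1434 CPM in WT and 6598, 3005 and 9365 CPM in Sh3gl1-/- cells, and 0 of 6 markers were called. Within each genotype the library with the least Serpina3f and Serpina3g, WT replicate 3 or Sh3gl1-/- replicate 2, also had the lowest erythroid level. The log2 difference with the erythroid level as a covariate was 2.05 ± 0.20 for Serpina3f and 1.09 ± 0.11 for Serpina3g (SE), given without a test. Neutrophil markers summed to 192 to 859 CPM in Sh3gl1-/- and 68.9 to 186 CPM in WT follicular cells, T-cell markers to 253 to 292 against 173 to 199 CPM, and plasma cell markers to 143 to 177 against 64 to 128 CPM. Marginal zone markers stood at 358 to 370 in Sh3gl1-/- and 414 to 511 CPM in WT cells, and germinal centre markers at 152 to 163 and 123 to 132 CPM. The B-cell markers stood at 68540 to 70944 and 63451 to 65939 CPM, with 1 of 7 called higher. The part of the erythroid and these other markers in the follicular result was not tested.

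**Figure D2:**
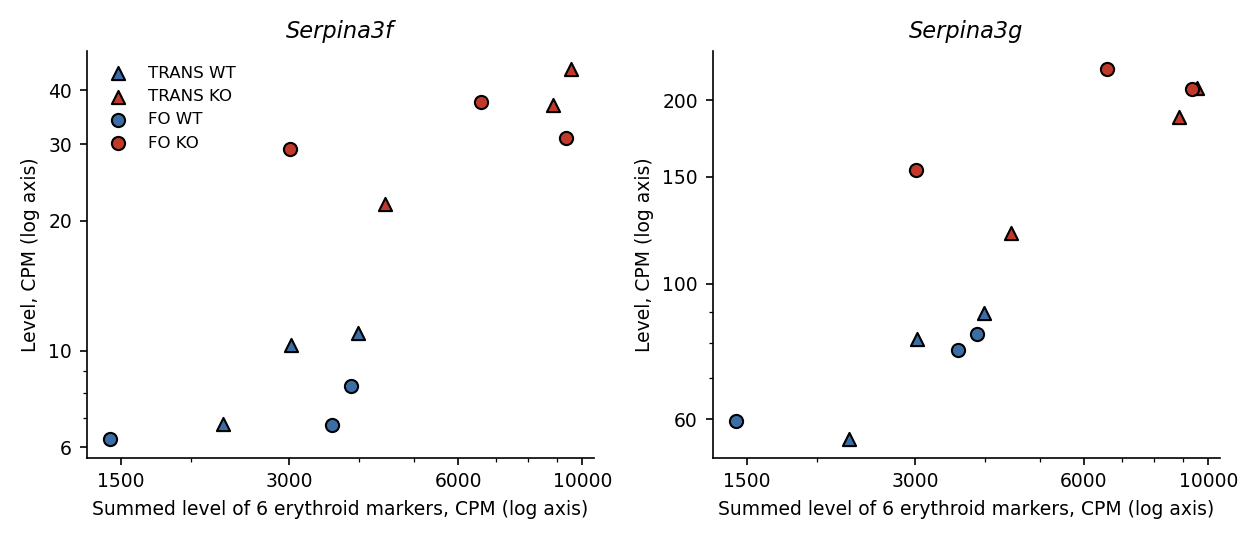
Level of each member against the summed level of 6 erythroid markers in the 12 ex vivo libraries, both in CPM on log axes (triangles, transitional; circles, follicular; blue, WT; red, KO). In follicular cells the erythroid levels of KO (3005 to 9365 CPM) and WT (1434 to 3867 CPM) overlap, whereas in transitional cells all KO points lie to the right of the WT points.

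**Figure D3:**
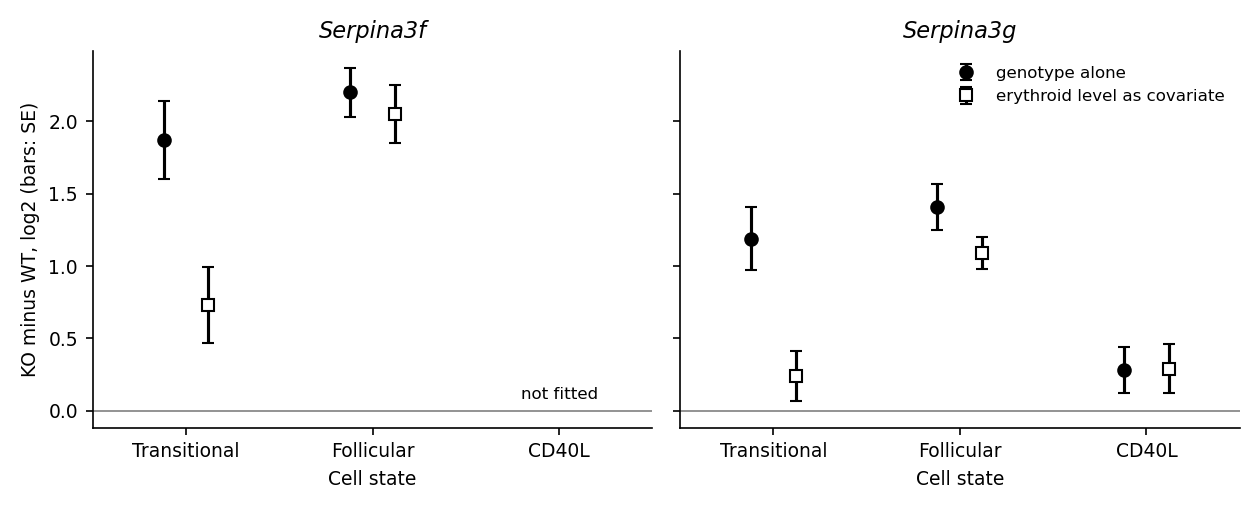
Fitted log2 difference between KO and WT for each member in the 3 cell states, with genotype alone (filled circles) and with the erythroid level as a covariate (open squares); bars are standard errors. The transitional difference of Serpina3f moved from 1.87 to 0.73 and that of Serpina3g from 1.19 to 0.24, and the follicular differences moved from 2.20 to 2.05 and from 1.41 to 1.09.

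Transitional and follicular cells of the same genotype had overlapping levels of both genes. In WT cells the log2 difference, follicular minus transitional, was -0.40 ± 0.26 for Serpina3f and -0.03 ± 0.22 for Serpina3g (SE). In Sh3gl1-/- cells it was -0.09 ± 0.23 for Serpina3f and 0.17 ± 0.21 for Serpina3g. The genotype difference was larger in follicular than in transitional cells by 0.31 on the log2 scale for Serpina3f and by 0.20 for Serpina3g. These values are given without a test, because the follicular values chose the pair. Of all genes tested between these cell states, 25.9% were called in WT and 10.4% in Sh3gl1-/- cells.

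After CD40L both genes were lower than ex vivo, Serpina3f far more than Serpina3g. Serpina3f was at 0.414, 0.334 and 0.428 CPM in WT and at 0.706, 0.879 and 0.439 CPM in Sh3gl1-/- cells, or 5 to 11 counts a library, above the floor of 3 counts. Its mean was 18.1-fold lower than in WT follicular cells ex vivo and 48.4-fold lower than in Sh3gl1-/- cells ex vivo. Serpina3g stood at 37.7, 38.0 and 35.7 CPM in WT and at 49.9, 35.4 and 47.4 CPM in Sh3gl1-/- cells, 1.98-fold and 4.43-fold lower than ex vivo. In each genotype every CD40L library lay below every ex vivo library for both genes. That held for 29.6% of all 14460 genes in WT and 27% in Sh3gl1-/- cells.

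The fitted log2 change from ex vivo to CD40L follicular cells was -4.17 ± 0.28 for Serpina3f and -1.01 ± 0.17 for Serpina3g in WT cells (SE). In Sh3gl1-/- cells it was -5.62 ± 0.26 for Serpina3f and -2.17 ± 0.17 for Serpina3g, larger by 1.45 and by 1.15 than in WT cells. These changes start from the ex vivo follicular values that chose the pair, high in Sh3gl1-/- and low in WT cells, and are given without a test. Of all genes, 25.7% were called lower after CD40L in WT and 21.8% in Sh3gl1-/- cells. The transitional libraries, which the choice did not use, stood above the CD40L libraries as well, with no overlap in either genotype. How many of all genes did so was not counted. Against follicular cells ex vivo, 29.6% of all genes did in WT and 27% in Sh3gl1-/- cells. Set against transitional cells, which also differ in cell state, the CD40L mean of Serpina3f was 23.9-fold lower in WT and 51.1-fold lower in Sh3gl1-/- cells. For Serpina3g it was 2.03-fold and 3.9-fold lower. Erythroid markers were lower as well, at 6.56 to 362 CPM after CD40L against 1434 to 9365 CPM in follicular cells ex vivo, and their part in the lower member levels was not tested.

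After CD40L the genotypes overlapped for Serpina3g, with means of 44.2 ± 7.74 CPM in Sh3gl1-/- and 37.1 ± 1.22 CPM in WT cells (SD, n = 3). The log2 difference was 0.28 ± 0.16 (SE, edgeR adjusted p = 0.75, 95% interval -0.03 to 0.59). Serpina3f did not pass the filter on low counts in this comparison. Its mean was 1.72-fold higher in Sh3gl1-/- than in WT cells, with no overlap (exact permutation test of log2 CPM, p = 0.1, the smallest possible). Its counts summed to 28 in Sh3gl1-/- cells (exact Poisson interval 18.6 to 40.5) and to 18 in WT cells (10.7 to 28.4), intervals that cover counting error only. The lowest Sh3gl1-/- value, 0.439 CPM, and the highest WT value, 0.428 CPM, each came from 7 counts, so the lack of overlap came from the scaling to library size. A genotype difference in Serpina3f was not detected at these counts. Every Sh3gl1-/- library lay above every WT library in 6.21% of the 13188 genes tested. With all genes of at least 1 count in the fit, the log2 difference of Serpina3f was 0.79 ± 0.84 (SE, edgeR adjusted p = 0.79). No gene was called higher in Sh3gl1-/- cells after CD40L by edgeR at an adjusted p under 0.05 (0%), 3 were called lower, and 932 in both directions had an unadjusted p under 0.05. DESeq2 called 79. Neutrophil markers summed to 55.8 to 211 CPM in Sh3gl1-/- and 10.5 to 43.3 CPM in WT cells after CD40L, marginal zone markers to 302 to 340 and 446 to 485 CPM, and transitional markers to 36.7 to 51.7 and 55.5 to 89.7 CPM. Their part in the values after CD40L was not tested.

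The genotype difference after CD40L was set against that in transitional cells in 1 fit. It was smaller after CD40L by 0.91 ± 0.29 on the log2 scale for Serpina3g (SE), with an unadjusted p = 0.0077 and an adjusted p = 0.89 in edgeR's test. For Serpina3f the fit gave -1.10 ± 0.57 (SE, edgeR adjusted p = 0.96, 95% interval -2.21 to 0.01). Of the 14649 genes tested, 0 were called, 719 had an unadjusted p under 0.05 in edgeR's test, and DESeq2 called 9. The transitional libraries enter both this difference and the transitional comparison above.

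Ordered by mean level, Serpina3f ran from Sh3gl1-/- transitional (34.5 CPM) and Sh3gl1-/- follicular (32.6 CPM) through WT transitional (9.38 CPM) and WT follicular (7.09 CPM) to Sh3gl1-/- (0.675 CPM) and WT cells (0.392 CPM) after CD40L. The members of each of the first 2 pairs in that order overlapped, and the pairs did not overlap each other. Serpina3g ran from Sh3gl1-/- follicular (196 CPM) and Sh3gl1-/- transitional (173 CPM) through WT transitional (75.5 CPM) and WT follicular (73.4 CPM) to Sh3gl1-/- (44.2 CPM) and WT cells (37.1 CPM) after CD40L. Here the groups of each pair overlapped and those of different pairs did not. How many of all genes had either order was not counted. Serpina3f had the larger fold of the pair between genotypes ex vivo and between ex vivo and CD40L cells.

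By TPM, Serpina3f amounted to 12 to 13.7% of Serpina3g in Sh3gl1-/- and 7.67 to 8.44% in WT transitional cells, with no overlap (two-sided exact permutation test, p = 0.1, the smallest possible). In follicular cells the ratio was 9.77 to 12.2% in Sh3gl1-/- and 5.54 to 6.61% in WT cells, which was not tested. After CD40L it was 0.606 to 1.64% in Sh3gl1-/- and 0.641 to 0.9% in WT cells, which overlapped (exact permutation test, p = 0.5). In each library 10.3 to 11.6% of the expected counts had a fractional part, since RSEM divides reads that match several genes. With the counts of both members summed to 1 feature, which a read moved from one to the other leaves unchanged, the transitional log2 difference was 1.29 ± 0.22 (SE, edgeR adjusted p = 0.025).

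**Figure D4:**
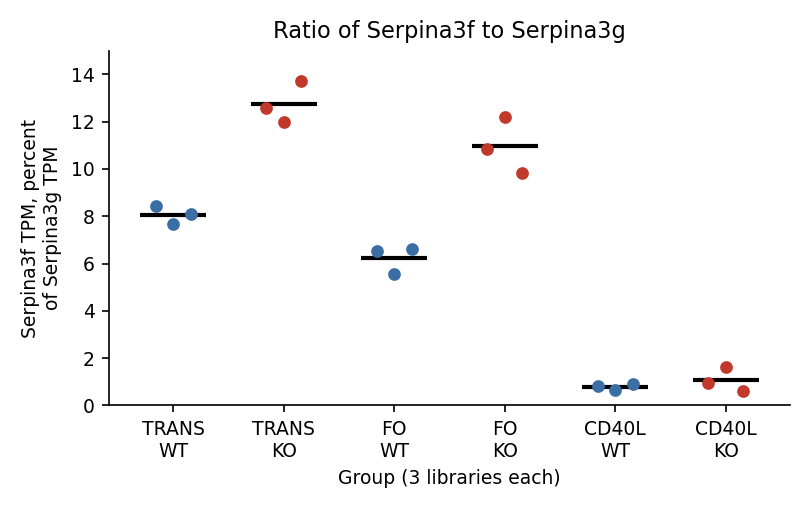
Serpina3f TPM as a percentage of Serpina3g TPM in each library, by group; lines are group means. The KO libraries lie above the WT libraries in transitional (12 to 13.7% against 7.67 to 8.44%) and follicular cells, and all CD40L libraries lie below 2%.

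The rest of the serpin cluster was at or near 0. Beside the pair, 26 genes and pseudogenes of the cluster were examined, of which 17 had 0 counts in all libraries and none had more than 3 counts in any. A count of 0 allows a level of up to 0.163 to 0.242 CPM, depending on the library. Within 1 Mb of the pair, 12 other genes were tested in each comparison of genotypes, and 0 were called in transitional, follicular or CD40L cells by edgeR. An unadjusted p under 0.05 was found for 2, 2 and 0 of them, and DESeq2 called 2, 1 and 0. Their median log2 difference was -0.13 in transitional and -0.13 in follicular cells, against 0.02 and -0.00 over all genes. Between genotypes, edgeR called 3.73% of all genes in transitional, 0.845% in follicular and 0.0227% in CD40L cells. An unadjusted p under 0.05 was found for 2996 of 13774, 1481 of 13610 and 932 of 13188 genes, and DESeq2 called 1340, 352 and 79. Of 13 neighbours tested for the CD40L response, 1 rose and 4 fell in each genotype: Asb2, a ubiquitin ligase subunit, rose, and Dicer1, Gm28875, Ifi27 and Ifi27l2a fell. Of all genes, 49.3% were called after CD40L in WT and 42.4% in Sh3gl1-/- cells.

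**Figure D5:**
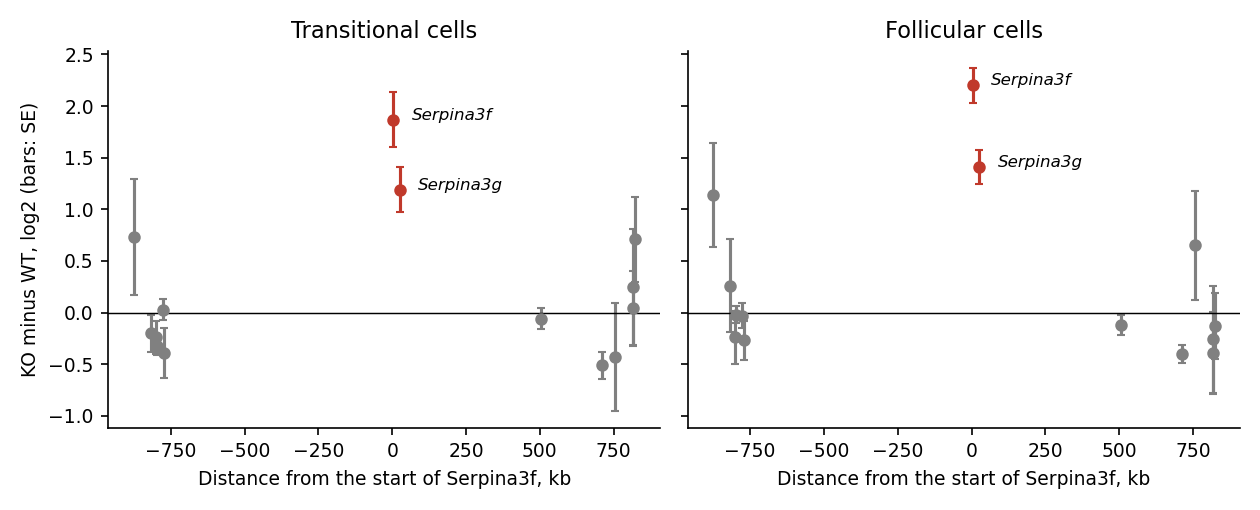
Fitted log2 difference between KO and WT for the genes tested within 1 Mb of the pair, against the distance of each gene's middle from the start of Serpina3f in kb (left, transitional; right, follicular; bars are standard errors). The members (red) stand at 1.87 and 1.19 in transitional and at 2.20 and 1.41 in follicular cells; edgeR called none of the 12 other genes (grey).

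Serpins elsewhere in the genome were read next. Of 23 listed, 11 were tested in transitional cells, of which 2 were called higher and 1 lower, with a median log2 difference of 0.40 against 0.02 over all genes. Serpinb6b rose by 1.37 ± 0.21 (SE, edgeR adjusted p = 0.0165) and Serpinb1a, an inhibitor of neutrophil proteases, by 0.44 ± 0.08 (adjusted p = 0.0259), while Serpini1, known as neuroserpin, fell by 0.46 ± 0.11 (adjusted p = 0.0497). In follicular cells 3 of 8 tested were called higher: Serpinb6b by 1.45 ± 0.23 (SE, edgeR adjusted p = 0.0172), Serpinb9, an inhibitor of granzyme B, by 1.28 ± 0.20 (adjusted p = 0.0177), and Serpinb1a by 0.40 ± 0.07 (adjusted p = 0.0342). The median of the 8 was -0.05 against -0.00 over all genes, with 3 of 8 above 0. Of all genes, 3.73% were called in transitional and 0.845% in follicular cells in either direction. After CD40L 0 of 10 were called between genotypes by edgeR or DESeq2, 1 had an unadjusted p under 0.05, and 0.0227% of all genes were called by edgeR. DESeq2 called 79 of all genes there, and 932 of 13188 had an unadjusted p under 0.05 in edgeR's test. The transitional and follicular calls stand beside the erythroid levels given above: with that covariate 0 of 11 were called in transitional cells and 1 of 8, Serpinb6b, in follicular cells. Over all genes, that fit called only 2 of 13774 in transitional and 55 of 13610 in follicular cells. After CD40L 3 of 10 fell in WT cells (Serpinb1a, Serpinb6a and Serpinb6b) and 4 of 10 in Sh3gl1-/- cells (the same 3 and Serpinb9), and 0 rose in edgeR's test. Of all genes, 25.7% fell in WT and 21.8% in Sh3gl1-/- cells.

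No protease of the list was called between genotypes by edgeR. Of 20 listed cathepsins and granule serine proteases, 0 of 17 tested were called in transitional cells, 0 of 18 in follicular cells and 0 of 12 after CD40L. An unadjusted p under 0.05 was found for 6, 4 and 1 of them, and DESeq2 called 3, 0 and 0. Of all genes, edgeR called 3.73%, 0.845% and 0.0227% in these comparisons. An unadjusted p under 0.05 was found there for 2996 of 13774, 1481 of 13610 and 932 of 13188 genes, and DESeq2 called 1340, 352 and 79. After CD40L 8 of 18 fell in WT and 11 of 18 in Sh3gl1-/- cells, and 1, Ctsz, rose in each. Over all genes 49.3% were called in WT and 42.4% in Sh3gl1-/- cells.

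Genes of interferon-gamma signalling were read as the pathway known to induce Serpina3g. In follicular cells 5 of 25 tested were called higher in Sh3gl1-/- cells and 0 lower, with 23 of 25 above 0 and a median log2 difference of 0.29 against -0.00 over all genes. Of all genes, 0.485% were called higher there. Irf1, a transcription factor induced by interferon-gamma, rose by 0.57 ± 0.08 (SE, edgeR adjusted p = 0.0109). The GTPases Tgtp1 (1.12 ± 0.15), Tgtp2 (0.98 ± 0.11) and Iigp1 (2.46 ± 0.49), which act on intracellular pathogens, and Nlrc5 (0.70 ± 0.11), the activator of MHC class I genes, were the others. In transitional cells 2 of 26 rose and 2 fell, with a median of 0.09, where 3.73% of all genes were called in either direction. Ciita, the activator of MHC class II genes, rose by 0.70 ± 0.09 (SE, edgeR adjusted p = 0.00925) and Tgtp1 by 0.82 ± 0.18 (adjusted p = 0.0428), whereas the GTPases Gbp3 and Gbp2 fell by 1.06 ± 0.11 and 0.45 ± 0.09. With the erythroid level as a covariate, 2 of 25 were called higher in follicular cells (Gbp6 and Tgtp2) with a median of 0.39, and 0 of 26 in transitional cells with a median of 0.07. Over all genes, that fit called 31 of 13610 higher in follicular cells and 2 of 13774 in either direction in transitional cells. After CD40L 0 of 25 were called between genotypes by edgeR and 1 by DESeq2, and 3 had an unadjusted p under 0.05. Of all genes, edgeR called 0.0227% there and DESeq2 called 79, and 932 of 13188 had an unadjusted p under 0.05 in edgeR's test. Of 26 tested for the CD40L response, 16 fell and 2 rose in each genotype, or 69.2% called against 49.3% of all genes in WT and 42.4% in Sh3gl1-/- cells.

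Of 22 type I interferon genes, 1 was called lower in transitional cells (Stat2, -0.43 ± 0.10 SE, edgeR adjusted p = 0.0476), 0 in follicular cells and 0 of 18 after CD40L. DESeq2 called 1, 1 and 0, and an unadjusted p under 0.05 was found for 7, 4 and 1. Of all genes, edgeR called 3.73% in transitional, 0.845% in follicular and 0.0227% in CD40L cells between genotypes. An unadjusted p under 0.05 was found for 2996 of 13774, 1481 of 13610 and 932 of 13188 genes, and DESeq2 called 1340, 352 and 79. After CD40L 17 of 22 fell in each genotype, where 25.7% of all genes fell in WT and 21.8% in Sh3gl1-/- cells, and 1, Ifnar1, rose in Sh3gl1-/- cells. With the erythroid covariate 0 were called between genotypes, and the transitional median turned from -0.31 to 0.58. Over all genes, the fits with this covariate called 2 in transitional, 55 in follicular and 3 in CD40L cells. Among 13 STAT3 and STAT6 genes tested, Socs2, a feedback inhibitor of cytokine signalling, rose by 1.82 ± 0.31 in transitional cells (SE, edgeR adjusted p = 0.0214). Il10ra, a chain of the interleukin-10 receptor, fell by 0.51 ± 0.11 in transitional and by 0.66 ± 0.13 in follicular cells. With the erythroid covariate 0 of these 13 were called in either cell state. Of 16 NF-kB genes, edgeR called 0 between genotypes in any cell state, with an unadjusted p under 0.05 for 4 in transitional, 1 in follicular and 3 in CD40L cells and 2 calls by DESeq2, both in transitional cells. After CD40L 12 rose in each genotype, where 23.6% of all genes rose in WT and 20.6% in Sh3gl1-/- cells. Serpina3g, whose upstream window holds the NF-kB motif, was lower after CD40L. The part of NF-kB in its level was not tested.

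The genes most like the pair across the 18 libraries were found by Pearson's r of log2 CPM over 15117 genes, as a description of libraries that share depth and cell state. The follicular libraries that chose the pair are among the 18. The r between the members, and the genes nearest to them, are therefore not independent of that choice. For Serpina3f they included Slc4a1 (r = 0.979), which encodes a red cell membrane protein, Irf1 (0.978) and Tgtp1 (0.974). The members had an r of 0.936 with each other, and 70 other genes were more like Serpina3f than Serpina3g was. For Serpina3g the nearest included Loxhd1 (0.941), Slc4a1 (0.929), Cldn13 (0.925) and Serpinb6b (0.922). With the mean of each cell state taken away, the r between the members was 0.941, which made Serpina3g the gene most like Serpina3f, and 1 gene was more like Serpina3g than Serpina3f was. Next to Serpina3f came Vav3 (0.913), Hivep3 (0.907), Slfn14 (0.900), Il9r (0.889) and Rpgrip1 (0.888). Those most like Serpina3g included Il9r (0.959), a cytokine receptor chain, Slc4a1 (0.914), C1qc (0.907) and St8sia6 (0.905). The interferon-gamma genes Irf1 and Tgtp1 stood among the 5 nearest of Serpina3f only, and only before the cell state means were taken away. The red cell gene Slc4a1 stood among the 5 nearest of Serpina3f before that step, and of Serpina3g before and after it. The libraries high in erythroid markers were among those high in the members.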

How the data were processed

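RNA from 18 libraries of B cells (6 groups of 3, by the titles in the labels) was analysed. The authors deposited RSEM expected counts per gene, which are not scaled to library size, with TPM, their estimate of each gene's share of the transcripts, and FPKM, scaled to length and library size. The processing notes name cutadapt 1.9.1, STAR 2.5.2a, RSEM 1.3.0 and GRCm38, whereas the methods name TopHat and Cufflinks. The methods describe SMART-Seq HT and Nextera XT libraries, and the labels a stranded KAPA kit. Use of strand in counting is not given in the sources used here.

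Symbols came from GENCODE M21, which lists 51633 of the 51912 identifiers. Expected counts were rounded and tested with edgeR 4.0.16 in R 4.3.3 (limma 3.58.1): TMM, filterByExpr by group, quasi-likelihood F test, Benjamini-Hochberg adjustment over all genes tested, call at an adjusted p under 0.05. The SE is the log2 difference divided by the square root of F. Genotypes were fitted within each cell state. Responses to CD40L were fitted on the 12 follicular libraries, cell states on the 12 ex vivo libraries, and the difference of genotype effects on the transitional and CD40L libraries. Serpina3f and Serpina3g, the gene lists and the tests were chosen with earlier results of these data known. The genes named are the pair, Sh3gl1, list members and neighbours that passed the test between genotypes, and the 5 genes most like each member. Some genes that met this rule are not reported here, and 1 was left out of the interferon-gamma list. Genes named for the response to CD40L or under the erythroid covariate lie outside this rule and were chosen after their values were seen. Libraries of a group differed by more than sampling noise, so each counted as 1 sample. The p-values set a difference between groups against the spread between these libraries. The main fits treated same-numbered libraries as independent. A floor of 3 counts corresponded to 0.163 to 0.242 CPM. The fits were tested on simulated data.

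Same-numbered libraries of WT and Sh3gl1-/- did not deviate together (r from -0.088 to 0.101). Within a genotype, every pair exceeded an r of 0.1 between transitional and follicular cells (0.103 to 0.263) and between follicular and CD40L cells in WT (0.136 to 0.224), but not in Sh3gl1-/- cells (0.030 to 0.119). The alternatives were DESeq2 1.42.0, RLE size factors, other filters, all libraries in one fit, replicate blocks, each library left out, limma on log2(TPM + 0.1), summed members and, added after seeing the data, the erythroid level as a covariate. Sequences came from RefSeq (GRCm38.p6 windows, matched for both members) and GENCODE M21.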

Additional observations from a re-analysis of the deposited data

How the results depend on the processing

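The lower level of both members after CD40L kept its direction in both genotypes under every alternative run. The log2 change of Serpina3f lay between -5.83 and -5.34 in Sh3gl1-/- and between -4.26 and -4.04 in WT cells when 1 library was left out. In transitional cells the higher level in Sh3gl1-/- cells kept its direction under every alternative and lost its call under some. It was not called for Serpina3f with the replicate block (1.83, edgeR adjusted p = 0.056), with limma on log2 TPM (1.76, adjusted p = 0.14) or with the erythroid covariate (0.73, edgeR adjusted p = 0.55), nor for Serpina3g with the block (1.18, edgeR adjusted p = 0.077), limma (1.11, adjusted p = 0.17) or the erythroid covariate (0.24, edgeR adjusted p = 0.77). The numbers do not pair the genotypes, and a call lost under this block is not described as a weaker effect. A block within each genotype could be fitted only across cell states, where the difference of genotype effects stayed uncalled for both members. Without 1 library the log2 difference was 1.64 to 2.12 for Serpina3f and 1.01 to 1.40 for Serpina3g. The difference of genotype effects between CD40L and transitional cells was called for Serpina3g with all genes of at least 1 count (-0.94, edgeR adjusted p = 0.004), where its adjusted p was 0.3 to 0.99 under the other alternatives that kept all libraries, and 0.52 to 1 without 1 library (-1.11 to -0.73). The cause was not tested.

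The follicular difference moved from 2.20 for Serpina3f to 1.50 with the pair, or all Serpina3 genes, summed, since Serpina3g supplies most of those counts, and from 1.41 for Serpina3g to 1.09 with the erythroid covariate. Without 1 library it was 2.08 to 2.32 and 1.28 to 1.56. After CD40L, the difference of Serpina3f was 0.69 to 1.03 when a library was left out and it passed the filter. Values near 0 changed sign between transitional and follicular cells: for Sh3gl1-/- cells Serpina3f gave 0.13 when summed with Serpina3g or all Serpina3 genes and -0.34 to 0.14 without 1 library, and Serpina3g -0.03 to 0.33, and for WT cells Serpina3g gave -0.21 to 0.11.

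Counts of called genes depended more on the fit. Between genotypes in transitional cells, 514 genes became 1340 with DESeq2, 1426 with all genes of at least 1 count, 144 with all libraries in one fit, 90 with the replicate block, 2 with the erythroid covariate and 28 to 479 without 1 library (28 without Sh3gl1-/- replicate 3). In follicular cells 115 became 352, 602, 49, 212, 55 and 32 to 112, and after CD40L 3 became 79, 216, 82, 21, 3 and 1 to 9. The difference of genotype effects had 0 called genes, 9 with DESeq2, 111 with all genes of at least 1 count, 1 with either block and 0 to 1 without 1 library. Follicular and transitional cells differed in 1518 genes in Sh3gl1-/- (986 to 1647 without 1 library) and 3772 in WT cells (2444 to 3773). Depth limited Serpina3f after CD40L, where a library held 5 to 11 of its counts. With 3 libraries a group, no outlier test was run.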
